A study of Mus musculus with 16 samples.

Results

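Among the genes of the NRF2 antioxidant pathway, 10 were followed in mouse quadriceps, namely *Nfe2l2*, *Keap1*, *Gclc*, *Gclm*, *Slc7a11*, *Txnrd1*, *Srxn1*, *Nqo1*, *Hmox1* and *Aldh3a1*. They were taken from the raw count table by their symbol, and 10 of its 41388 rows matched. The table holds total RNA sequencing of 16 libraries from C57BL/6 mice collected at postnatal day 36 per the labels. *Mtm1* encodes the phosphoinositide phosphatase myotubularin, whose loss causes X-linked myotubular myopathy, and the study asked how tamoxifen acts on the muscle of mice that lack it. The groups were wild type mice (WT), wild type mice given tamoxifen (WT + TAM), *Mtm1*-/- mice (*Mtm1* KO) and *Mtm1*-/- mice given tamoxifen (*Mtm1* KO + TAM). Tamoxifen was mixed into the diet at 40 mg per kg per day from day 21 of age, and the labels name no treatment for the WT and *Mtm1* KO groups. The tests used the 14 libraries that the study's own comparisons used, with 3 mice in each untreated group and 4 in each group given tamoxifen.

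NRF2, the product of *Nfe2l2*, is a transcription factor that pairs with small MAF proteins and binds antioxidant response elements in front of genes of glutathione synthesis, thioredoxin recycling and detoxification. KEAP1 holds NRF2 on the CUL3 ubiquitin ligase, which keeps NRF2 low until oxidants or electrophiles modify KEAP1, so that NRF2 is set mainly at the protein level, which RNA counts do not show. In skeletal muscle the pathway is known for its part in the defence against oxidants made during contraction.

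Promoter windows of RefSeq (GRCm38.p6), from 250 bases before to 50 bases after a start, were held for 7 of the 10 genes, and they are *Nfe2l2*, *Keap1*, *Gclm*, *Slc7a11*, *Txnrd1*, *Srxn1* and *Nqo1*. On either strand, the antioxidant response element core TGACNNNGC stood in a window of 4 of these 7 genes (*Nfe2l2*, *Gclm*, *Txnrd1* and *Srxn1*), and in 12.4% of all 32851 windows, or a window of 14% of all genes. The xenobiotic response element core GCGTG, which the aryl hydrocarbon receptor binds, stood in a window of 4 of the 7 genes (*Keap1*, *Gclm*, *Txnrd1* and *Srxn1*) and in 32.4% of all windows, or a window of 35.2% of all genes. A further site, TGANTCAGC, which overlaps the antioxidant core where the letter N is C, was searched only after the sequences had been read. It stood in the window of *Srxn1*, at -45 to -37 from the start, in no window of the other 6 genes, in 1.19% of all windows and in a window of 1.37% of all genes. The 250 bases before the start of *Srxn1* (chr2:152105274-152105523, plus strand) are shown because *Srxn1* differed with genotype in all comparisons of *Mtm1* KO with WT mice described below. Those of *Gclm* (chr3:122245307-122245556, plus strand) and of the *Txnrd1* window that holds the core (chr10:82858956-82859205, plus strand) are shown because both hold the antioxidant core and neither gene passed the test. Capitals mark TGACNNNGC or TGANTCAGC, the former as its reverse complement in *Gclm* and *Txnrd1*.
Srxn1: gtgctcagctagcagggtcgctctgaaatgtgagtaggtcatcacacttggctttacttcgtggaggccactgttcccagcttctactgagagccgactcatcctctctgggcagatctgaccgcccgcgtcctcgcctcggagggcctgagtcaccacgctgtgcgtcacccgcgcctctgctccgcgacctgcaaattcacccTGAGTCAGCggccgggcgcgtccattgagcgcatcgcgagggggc
Gclm: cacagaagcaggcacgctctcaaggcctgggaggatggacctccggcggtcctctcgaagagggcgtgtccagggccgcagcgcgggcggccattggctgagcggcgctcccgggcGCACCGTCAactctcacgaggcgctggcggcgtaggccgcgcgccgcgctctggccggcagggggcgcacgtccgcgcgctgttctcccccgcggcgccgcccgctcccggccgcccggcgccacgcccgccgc
Txnrd1: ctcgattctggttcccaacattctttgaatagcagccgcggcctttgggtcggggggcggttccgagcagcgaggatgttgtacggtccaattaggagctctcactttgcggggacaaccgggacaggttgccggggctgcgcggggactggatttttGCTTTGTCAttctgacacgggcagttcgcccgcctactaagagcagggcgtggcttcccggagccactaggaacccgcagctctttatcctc
The antioxidant core of *Srxn1* lay 28 to 36 bases after the start, also as its reverse complement, in capitals here between 10 bases on either side.
Srxn1, after the start: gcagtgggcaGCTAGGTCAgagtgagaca
These matches describe letters in a window and show no binding.

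Total counts per library were 25116179 to 29847222, and levels are given as counts-per-million (CPM) after TMM scaling. *Mtm1* had 282 to 459 counts in the 7 WT and WT + TAM libraries and 53 to 97 in the 7 libraries of *Mtm1* KO mice, treated or not, of the main set. WT replicate 1, with 74 counts of *Mtm1* or 3.82 CPM, lay above all 8 libraries of knockout mice (1.76 to 3.08 CPM) and far below the other 7 of wild type mice (12.1 to 18.5 CPM). Its nearest library was WT replicate 4, and its muscle fibre markers summed to 197041 CPM, within the range of WT. It is outside the main set, as is KO replicate 12. These 2 libraries also stood apart from their groups, since the squared difference between them and the others of their group was 18.3 to 38.5 times that of counting alone (median over genes), against 7.38 to 14.1 for 17 other pairs within a group. WT + TAM replicates 7 and 8 were the closest pair at 3.22 times. They differed by more than counting, which alone does not show that they came from separate mice. The study counts 4 mice in this group, and the labels do not settle the point. They were kept as separate libraries, and a call below that is lost when they are summed is given with that result. The markers of muscle fibres (7 of 7 listed genes in the table, none at 0) summed to 152273 to 208431 CPM in WT, 162608 to 174059 in WT + TAM, 88912 to 108135 in *Mtm1* KO and 76127 to 111141 in *Mtm1* KO + TAM. *Myh1*, 1 of the 7, went the other way, at 3012, 4352, 5807 and 7477 CPM on average in the same order of groups. In whole muscle, fewer cells of a type and less RNA per cell cannot be told apart. The part of the shift in these markers in the differences between genotypes was not tested.

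Differences were tested with edgeR's quasi-likelihood test on raw counts, with Benjamini-Hochberg adjustment over all genes tested, and a gene was called at an adjusted p of at most 0.01. *Slc7a11* did not pass the filter on low counts in any comparison, so that 9 of the 10 genes were tested. In *Mtm1* KO against WT, 1 of the 9 was called (*Srxn1*, higher), where 3.6% of all 14740 genes tested were called. The treated pair, *Mtm1* KO + TAM against WT + TAM, had 2 of the 9 called (*Aldh3a1* and *Srxn1*, higher), against 6.72% of all genes. In *Mtm1* KO + TAM against WT, which differ in both genotype and treatment, the 2 called were *Srxn1* and *Nfe2l2*, both higher, against 7.7% of all genes. Averaged over treatments in a fit of all 4 groups, the difference between genotypes was called for 3 of the 9 genes, higher for *Aldh3a1* and *Srxn1* and lower for *Keap1*, where 19.4% of all genes were called. At an unadjusted p under 0.05 the 4 comparisons held 5 (30.1% of all genes), 5 (32.3%), 5 (34%) and 7 (43.7%) of the 9 genes, in this order.

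The median log2 fold change of the 9 genes was 0.16 in *Mtm1* KO against WT and 0.16 in *Mtm1* KO + TAM against WT + TAM, beside 0.02 and -0.01 over all genes tested. In both comparisons 5 of the 9 genes lay above 0 (52.4% and 48.7% of all genes) and 4 below, so the genes did not share a direction. The groups did not overlap for 5 of the 9 genes in *Mtm1* KO against WT, 3 higher (17.4% of all genes) and 2 lower (19%), or 36.3% in either direction. They did not overlap for 3 of the 9 in *Mtm1* KO + TAM against WT + TAM, 2 higher (10.9%) and 1 lower (11.6%), or 22.5% in either direction. These comparisons share no libraries, but those against WT share the WT libraries, and those of *Mtm1* KO + TAM share its libraries.

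Tamoxifen gave no call among the 9 genes with edgeR's quasi-likelihood test, neither in WT + TAM against WT (0.131% of all genes called, 1 of the 9 and 10.7% of all genes at an unadjusted p under 0.05) nor in *Mtm1* KO + TAM against *Mtm1* KO (0% of all genes called, 2 of the 9 and 7.55% of all genes at an unadjusted p under 0.05). DESeq2 and edgeR's exact test also called 0 of the 9 in both comparisons. Averaged over genotypes, 0 of the 9 were called (0.591% of all genes), 2 had an unadjusted p under 0.05 (14.1% of all genes), and DESeq2 called 1, *Nfe2l2*. The interaction of genotype and tamoxifen was called for 0 of the 9 genes (0% of all genes), 0 had an unadjusted p under 0.05 (4.27% of all genes), and DESeq2 called 0.

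**Figure D1:**
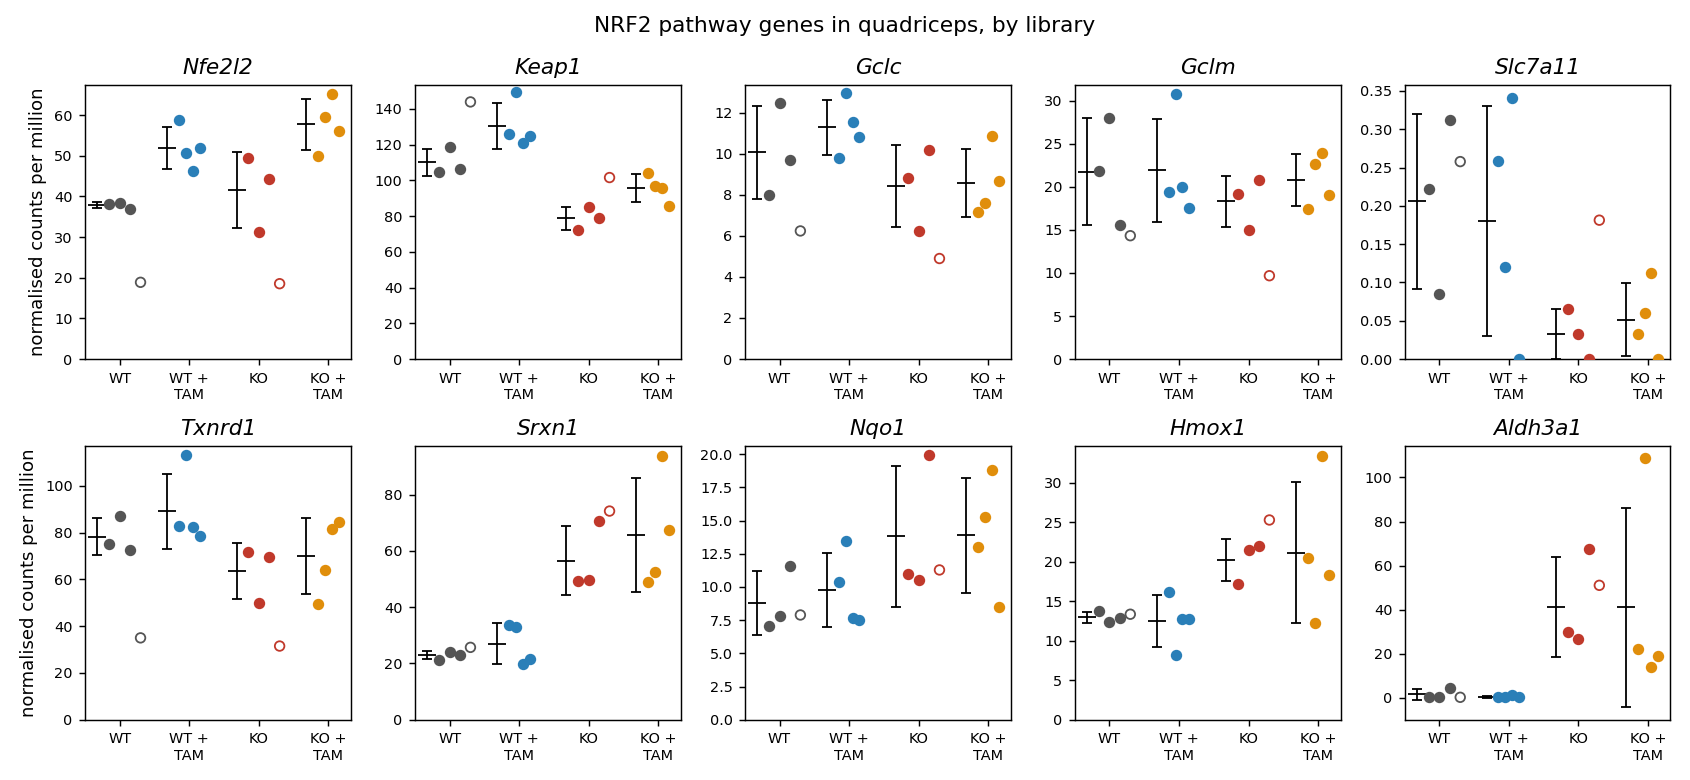
Normalised CPM of the 10 genes in each library of the 4 groups (one panel a gene, filled points for the 14 libraries tested, open points for WT replicate 1 and KO replicate 12, bars for the mean ± SD of the filled points, n = 3 or 4). *Aldh3a1* was at most 4.60 CPM in every WT and WT + TAM library and at least 14.1 in every *Mtm1* KO and *Mtm1* KO + TAM library, *Srxn1* was at most 33.7 and at least 49.1, and *Gclc*, *Gclm* and *Nqo1* overlapped between genotypes.

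Of the regulators, *Nfe2l2* (ENSMUSG00000015839, chr2:75675513-75704641, minus strand) had its highest means in the groups given tamoxifen but was not called within a genotype, and *Keap1* (ENSMUSG00000003308, chr9:21229730-21239361, minus strand) was called lower between genotypes averaged over treatments. *Nfe2l2* was at 38.3, 38.4 and 36.9 CPM in the WT mice and at 58.7, 50.7, 46.3 and 52.0 CPM in the WT + TAM mice. It was at 49.4, 31.3 and 44.4 CPM in the *Mtm1* KO mice and at 49.9995, 59.6, 65.1 and 56.1 CPM in the *Mtm1* KO + TAM mice. In either genotype every treated library of the main set lay above every untreated one in CPM, as was seen for *Keap1* too. In this direction 5.14% of all genes separated in WT (11.5% either way) and 3.98% in *Mtm1* KO (7.69% either way). In RPKM, which scales counts by gene length, *Nfe2l2* separated in WT only. There *Mtm1* KO replicate 9 was at 15.2 and *Mtm1* KO + TAM replicate 13 at 13.6. The log2 fold change with tamoxifen was 0.45 ± 0.11 (SE) in WT and 0.46 ± 0.16 in *Mtm1* KO, with adjusted p of 0.157 and 0.504 (edgeR's quasi-likelihood test), and 0.46 ± 0.10 averaged over genotypes, with an adjusted p of 0.0304. *Mtm1* KO + TAM was above WT by 0.61 ± 0.12 on the log2 scale (adjusted p = 0.00568, edgeR's quasi-likelihood test), and this call was lost without any 1 of the WT libraries or *Mtm1* KO + TAM replicate 14 or 15, with adjusted p of up to 0.0274, and with all 16 libraries (0.80, adjusted p = 0.0502). Between genotypes the log2 fold change of *Nfe2l2* was 0.16 ± 0.17 without and 0.16 ± 0.12 with tamoxifen, with adjusted p of 0.56 and 0.388 in edgeR's test. Averaged over treatments it was 0.15 ± 0.10 (adjusted p = 0.286, edgeR's test), and with library size in place of TMM it was 0.46 and called (adjusted p = 0.00329), where the median gene stood at 0.31. WT replicate 1 and KO replicate 12, outside the main set, had the lowest levels of *Nfe2l2*, at 18.9 and 18.5 CPM.

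*Keap1* was at 105, 119 and 107 CPM in WT and at 126, 149.5, 121 and 125 CPM in WT + TAM. It was at 72.4, 84.9 and 78.9 CPM in *Mtm1* KO and at 104, 96.8, 95.7 and 85.8 CPM in *Mtm1* KO + TAM. In CPM all 7 libraries of the *Mtm1* KO groups lay below all 7 of the WT groups, as for 5.68% of all genes in this direction (10.7% in either). Within each genotype the treated libraries of the main set lay above the untreated ones. Outside the main set, untreated WT replicate 1 was at 144 CPM and untreated KO replicate 12 at 102 CPM. Both lay within the range of the treated libraries of their genotype. In RPKM, *Mtm1* KO and *Mtm1* KO + TAM overlapped, at 22.3 in *Mtm1* KO replicate 10 and 20.7 in *Mtm1* KO + TAM replicate 16. The difference between genotypes was -0.46 ± 0.08 (log2, SE) averaged over treatments, with an adjusted p of 3.83e-04 (edgeR's quasi-likelihood test). Taken apart it was -0.46 ± 0.12 without and -0.44 ± 0.11 with tamoxifen, at adjusted p of 0.0416 and 0.0184 in edgeR's test. The size depended on the scale, since with library size in place of TMM the median of all genes moved from 0.01 to 0.31 and *Keap1* stood at -0.15, with an adjusted p of 0.128 in edgeR's test. *Keap1* was thus below the median gene on either scale, and its RPKM in *Mtm1* KO, 20.3 ± 1.78 (SD, n = 3), overlapped that in WT, 22.4 ± 0.29 (SD, n = 3). In *Mtm1* KO + TAM it was 23.7 ± 2.10 RPKM (SD, n = 4), with a mean above that of untreated WT. This overlapped WT + TAM, at 26.6 ± 2.94 RPKM (SD, n = 4). With tamoxifen the log2 fold change of *Keap1* was 0.24 ± 0.11 in WT and 0.27 ± 0.12 in *Mtm1* KO, at adjusted p of 0.474 and 0.651 in edgeR's test. The antisense gene *Gm16754* covers 10.9% of the exon bases of *Keap1*. It had 6 to 108 counts per library beside 2212 to 3718 of *Keap1* in the 14 libraries, and the strand setting of the counting is not given in the sources used here.

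The genes of glutathione synthesis were not called in any comparison. *Gclc* (ENSMUSG00000032350, chr9:77754535-77794485, plus strand) encodes the catalytic subunit of glutamate-cysteine ligase, the rate-limiting enzyme of glutathione synthesis, and *Gclm* (ENSMUSG00000028124, chr3:122245557-122270732, plus strand) its modifier subunit. *Gclc* was at 8.01, 12.5 and 9.71 CPM in WT, at 9.81, 12.9, 11.5 and 10.8 CPM in WT + TAM, at 8.80, 6.25 and 10.2 CPM in *Mtm1* KO and at 7.16, 7.60, 10.9 and 8.65 CPM in *Mtm1* KO + TAM. *Gclm* was at 21.8, 28.02 and 15.5 CPM in WT, at 19.4, 30.8, 19.98 and 17.5 CPM in WT + TAM, at 19.2, 15.1 and 20.8 CPM in *Mtm1* KO and at 17.4, 22.7, 23.99 and 19.0 CPM in *Mtm1* KO + TAM. For both genes the groups overlapped between genotypes and between treatments. The log2 fold change of *Gclc* was -0.23 ± 0.23 in *Mtm1* KO against WT and -0.39 ± 0.16 in *Mtm1* KO + TAM against WT + TAM, at adjusted p of 0.539 and 0.12 (edgeR's quasi-likelihood test). That of *Gclm* was -0.22 ± 0.22 and -0.07 ± 0.18, at adjusted p of 0.528 and 0.814 in edgeR's test. With library size in place of TMM, *Gclc* and *Gclm* stood at 0.08 and 0.09 in *Mtm1* KO against WT, below the shift of the median gene to 0.33. For *Gclm*, 4.58% of the stretches of 50 bases recur in other genes, mainly *Gm17494*, which had 0 to 3 counts per library.

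*Slc7a11* (ENSMUSG00000027737, chr3:49892526-50443614, minus strand), the cystine transporter that supplies cysteine for glutathione, was near the limit of detection. It had 6, 2 and 8 reads in the WT libraries, 6, 3, 8 and 0 in WT + TAM, 2, 1 and 0 in *Mtm1* KO and 1, 2, 4 and 0 in *Mtm1* KO + TAM. The sums were 16, 17, 3 and 7 reads, and the groups overlapped. At this depth no difference was tested.

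Of the thioredoxin branch, *Srxn1* rose in the *Mtm1* KO mice and *Txnrd1* did not pass the test. *Srxn1* (ENSMUSG00000032802, chr2:152105516-152111376, plus strand) encodes sulfiredoxin, which reduces overoxidised peroxiredoxins. It was at 21.4, 24.2 and 23.2 CPM in WT and at 33.7, 33.1, 19.7 and 21.7 CPM in WT + TAM. It was at 49.3, 49.8 and 70.7 CPM in *Mtm1* KO and at 49.1, 52.4, 93.7 and 67.4 CPM in *Mtm1* KO + TAM. Every *Mtm1* KO library, treated or not, lay above every WT library, as for 5.02% of all genes in this direction, and treated and untreated libraries overlapped within each genotype. The rise was 2.51-fold in *Mtm1* KO against WT (log2 1.33 ± 0.16, adjusted p = 0.00202, edgeR's quasi-likelihood test) and 2.43-fold in *Mtm1* KO + TAM against WT + TAM (log2 1.28 ± 0.23, adjusted p = 0.00431). Against untreated WT, *Mtm1* KO + TAM was 2.87-fold higher (log2 1.52 ± 0.21, adjusted p = 0.00115 in edgeR's test). In *Mtm1* KO against WT the adjusted p was 0.00413 to 0.012 in edgeR's test with 1 library left out, and of these 6 fits the one without WT replicate 4 lost the call. In the treated pair the call was lost without WT + TAM replicate 7 or 8 or *Mtm1* KO + TAM replicate 15 or 16 (adjusted p of up to 0.0147 in edgeR's test), and with WT + TAM replicates 7 and 8 summed as 1 library (log2 1.17, adjusted p = 0.0139), an alternative chosen after seeing the data. The WT + TAM libraries higher in *Srxn1*, replicates 5 and 6, also had the higher sums of 5 fat cell markers, 1584 and 910 CPM against 353 and 344 in replicates 7 and 8, and the part of fat cells in its level was not tested. WT replicate 2, with 1003 CPM of these markers, had the lowest *Srxn1* level of the WT libraries. In the libraries outside the main set, *Srxn1* was at 25.7 CPM in WT replicate 1 and at 74.2 CPM in KO replicate 12.

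*Txnrd1* (ENSMUSG00000020250, chr10:82833951-82897712, plus strand) encodes the cytosolic thioredoxin reductase that keeps thioredoxin reduced. It was at 75.2, 87.1 and 72.4 CPM in WT, at 83.0, 113, 82.3 and 78.5 CPM in WT + TAM, at 71.7, 49.8 and 69.5 CPM in *Mtm1* KO and at 49.5, 64.0, 81.4 and 84.4 CPM in *Mtm1* KO + TAM. The *Mtm1* KO libraries lay just below those of WT, and the treated groups overlapped. The log2 fold change was -0.27 ± 0.16 without and -0.35 ± 0.18 with tamoxifen, at adjusted p of 0.295 and 0.199 (edgeR's quasi-likelihood test). With library size in place of TMM it stood at 0.04 in *Mtm1* KO against WT, below the median gene.

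*Nqo1*, the quinone reductase that serves as the usual readout of NRF2, had higher means in the *Mtm1* KO groups than in the WT groups. It was not called with edgeR's quasi-likelihood test. The same held for *Hmox1*, the heme oxygenase that splits heme into iron, carbon monoxide and biliverdin. *Nqo1* (ENSMUSG00000003849, chr8:107388225-107403206, minus strand) was at 7.09, 7.79 and 11.5 CPM in WT, at 10.4, 13.4, 7.67 and 7.53 CPM in WT + TAM, at 10.96, 10.5 and 19.96 CPM in *Mtm1* KO and at 12.98, 15.3, 18.8 and 8.46 CPM in *Mtm1* KO + TAM. The groups overlapped in both genotype comparisons. The log2 fold change of *Nqo1* was 0.67 ± 0.28 without and 0.51 ± 0.25 with tamoxifen (adjusted p of 0.15 and 0.183, edgeR's quasi-likelihood test) and 0.58 ± 0.21 averaged over treatments (adjusted p = 0.0436).

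*Hmox1* (ENSMUSG00000005413, chr8:75093621-75100589, plus strand) was at 13.7, 12.3 and 12.9 CPM in WT and at 16.2, 8.24, 12.8 and 12.7 CPM in WT + TAM. It was at 17.2, 21.5 and 21.9 CPM in *Mtm1* KO and at 20.4, 12.2, 33.4 and 18.4 CPM in *Mtm1* KO + TAM. *Mtm1* KO lay above WT in every library, while the treated groups overlapped through *Mtm1* KO + TAM replicate 14. The log2 fold change was 0.66 ± 0.14 without and 0.76 ± 0.28 with tamoxifen (adjusted p of 0.0183 and 0.0873, edgeR's quasi-likelihood test), and 0.70 ± 0.19 averaged over treatments (adjusted p = 0.0102). In *Mtm1* KO against WT, *Hmox1* was called in 6 of 10 other settings, among them DESeq2 and edgeR's exact test, and in 0 of 6 fits that left out 1 library. With library size in place of TMM, *Nqo1* (0.89) and *Hmox1* (1.02) were both called averaged over treatments, where the median gene stood at 0.31. Macrophages are rich in *Hmox1*, and their markers (7 of 7 in the table, none at 0) summed to 143 to 169 CPM in WT, 83.3 to 171 in WT + TAM, 179 to 217 in *Mtm1* KO and 185 to 293 in *Mtm1* KO + TAM. The WT + TAM library lowest in *Hmox1*, replicate 6, was also lowest in these markers at 83.3 CPM, and the *Mtm1* KO + TAM library highest in *Hmox1*, replicate 15, was highest at 293 CPM. KO replicate 12, outside the main set, went the other way, with 25.3 CPM of *Hmox1* and 145 CPM of the markers, within the range of WT, and WT replicate 1 had 13.4 CPM of *Hmox1* and 87.3 CPM of the markers. Of the 7 macrophage markers, 6 lay above 0 in *Mtm1* KO against WT (52.4% of all genes). In edgeR's test 0 were called there (3.6% of all genes) and 0 in the treated pair (6.72%), and 2 were called higher averaged over treatments (8.99%). *Mrc1*, 1 of the 7, averaged 31.7 CPM in WT and 29.3 in *Mtm1* KO. The part of macrophages in the level of *Hmox1* was not tested.

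*Aldh3a1* (ENSMUSG00000019102, chr11:61207537-61218421, plus strand) had the largest difference between genotypes among the 9 genes. It encodes an aldehyde dehydrogenase known from the cornea and stomach that oxidises aromatic and medium-chain aldehydes, among them products of lipid peroxidation, and it responds to the aryl hydrocarbon receptor. It was at 0.295, 0.296 and 4.60 CPM in WT and at 0.430, 0.201, 1.11 and 0.252 CPM in WT + TAM. It was at 29.8, 26.5 and 67.6 CPM in *Mtm1* KO and at 22.2, 109, 14.1 and 18.9 CPM in *Mtm1* KO + TAM. The genotypes were far apart, and a high library stood out in WT (replicate 4) and in *Mtm1* KO + TAM (replicate 14). In reads, these were 8, 7 and 118 in WT, 10, 5, 26 and 6 in WT + TAM, 910, 811 and 2123 in *Mtm1* KO and 668, 3623, 502 and 578 in *Mtm1* KO + TAM.

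Between the treated genotypes, *Aldh3a1* was 82.4-fold higher (log2 6.36 ± 0.82, adjusted p = 7.7e-04, edgeR's quasi-likelihood test), and it remained called in all 8 fits that left out 1 library and with WT + TAM replicates 7 and 8 summed. Leaving out 1 library moved the log2 fold change between 5.21 and 7.11. In *Mtm1* KO against WT it was 24.1-fold higher (log2 4.59 ± 0.85), with an adjusted p of 0.0107 in edgeR's test, which misses 0.01. Without WT replicate 4 the log2 fold change was 7.12 and the adjusted p 0.00145 in edgeR's test, and it was called in 7 of 10 other settings, among them DESeq2 (adjusted p = 0.00272). That WT library held 15.6 times the mean of the other WT libraries, and the lowest *Mtm1* KO library held 5.77 times the level of that WT library. Against untreated WT, *Mtm1* KO + TAM differed by 4.56 ± 1.01 on the log2 scale, at an adjusted p of 0.0109 in edgeR's test, and averaged over treatments the genotypes differed by 5.47 ± 0.69 (adjusted p = 3.38e-05).

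With tamoxifen the log2 fold change of *Aldh3a1* was -0.03 ± 0.63 in *Mtm1* KO and -1.80 ± 0.97 in WT, at adjusted p of 0.996 and 0.554 (edgeR's quasi-likelihood test). The value in WT rested on replicate 4, without which it was 0.74. The interaction was 1.79 ± 1.33 on the log2 scale (adjusted p = 1, edgeR's test) and turned to -0.74 without that library. In the libraries outside the main set, *Aldh3a1* was at 0.258 CPM (5 reads) in WT replicate 1 and at 51.1 CPM (1408 reads) in KO replicate 12. Neither *Aldh3a1* nor *Srxn1* shared a 50-base stretch with another gene of GENCODE vM21. Of the markers of keratinocytes and surface epithelium, *Krt5* and *Krt14* had 0 reads in the 7 libraries of *Mtm1* KO mice, treated or not. *Krt14* also had 0 reads in WT and *Krt5* in WT + TAM, so this absence was not particular to the *Mtm1* KO mice. *Krt10* of the same list was at 4.10 CPM in WT and 3.17 in *Mtm1* KO on average. The list of 7 summed to 9.64 to 15.3 CPM in WT, 8.93 to 14.9 in WT + TAM, 19.6 to 35.9 in *Mtm1* KO and 19.7 to 39.4 in *Mtm1* KO + TAM, and *Trp63*, which was at 7.70 CPM in WT and 21.8 in *Mtm1* KO on average, made up most of that difference.

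**Figure D2:**
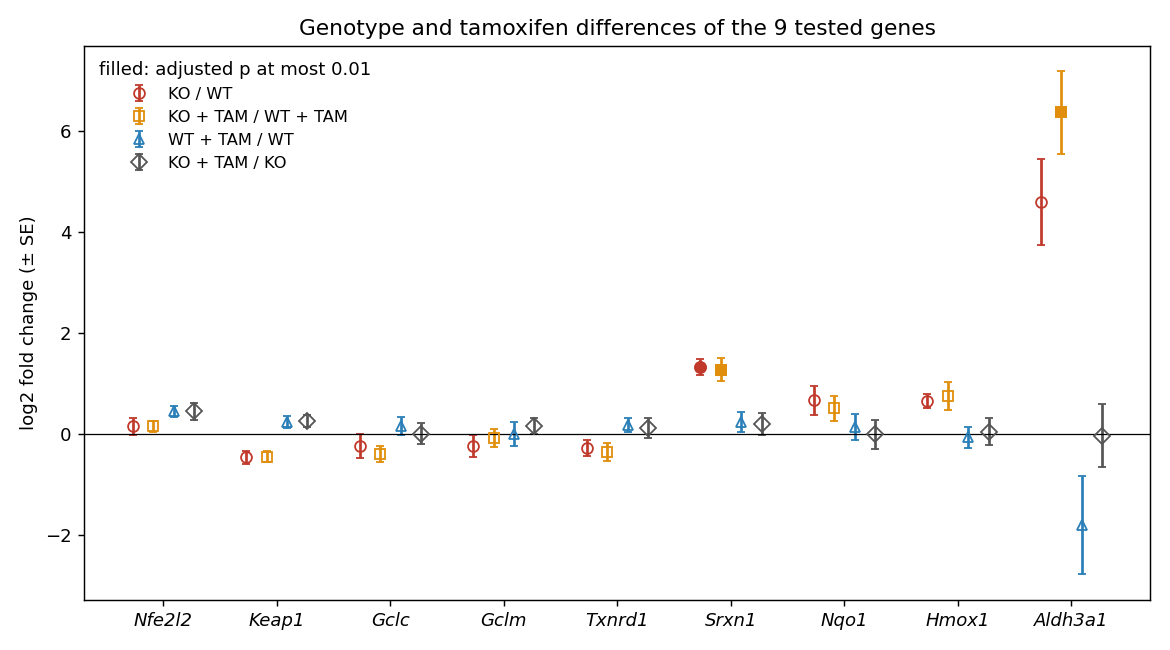
Log2 fold change ± SE of the 9 tested genes in 4 comparisons, from edgeR's quasi-likelihood fits of 2 groups each (3 or 4 libraries a group), with filled symbols for an adjusted p of at most 0.01. Only *Srxn1* (1.33 and 1.28) and *Aldh3a1* (6.36) carry filled symbols, in the comparisons between genotypes.

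Per gene length, the order of the 10 genes differed between the genotypes. On the RPKM scale, which scales counts by gene length, *Aldh3a1* ranked 9 of 10 in WT, with a mean of 0.827 ± 1.19 (SD, n = 3), and 1 of 10 in *Mtm1* KO, with 24.3 ± 12.6. With tamoxifen it ranked 9 of 10 in WT + TAM, with 0.234 ± 0.197 (SD, n = 4), and 3 of 10 in *Mtm1* KO + TAM, with 23.6 ± 26.6. That last mean rested on replicate 14, at 63.4 RPKM, where the other *Mtm1* KO + TAM libraries were at 8.66 to 11.8. *Srxn1* ranked 4 of 10 in WT, with 7.41 ± 0.21, and 2 of 10 in *Mtm1* KO, with 23.1 ± 4.25. In WT, *Keap1* and *Txnrd1* were the most abundant, at 22.2 to 22.8 and 19.7 to 21.8 RPKM, and the ranges of neighbours in the order did not overlap down to *Hmox1*, which overlapped *Nqo1*, as did *Nqo1* and *Gclm*, and *Gclm* and *Gclc*. In *Mtm1* KO, *Aldh3a1*, *Srxn1*, *Txnrd1* and *Keap1* had overlapping ranges, at 16.1 to 38.8, 20.4 to 27.96, 17.1 to 24.5 and 18.9 to 22.3 RPKM. *Gclc* and *Gclm* were at 2.67 and 3.57 RPKM in WT and at 2.82 and 3.81 in *Mtm1* KO on average, and *Slc7a11* was the lowest in all 4 groups, at most 0.028 in any library tested.

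The genes whose profiles were nearest to *Aldh3a1* and *Srxn1* were sought among 12807 genes, as the root mean square difference between standardised log2 CPM over the 14 libraries. Nearest to *Aldh3a1* were *Krt8*, a keratin of simple epithelia, at 0.18, *Cx3cl1*, the chemokine fractalkine, at 0.19, *Uchl1*, a ubiquitin hydrolase, at 0.21, *Nfkbie*, an inhibitor of NF-kB, at 0.23, and *Fam171b* at 0.23, where the median gene was at 1.37. *Krt8* was at 0.148, 0.0846 and 1.29 CPM in WT and at 15.5, 11.6 and 28.3 CPM in *Mtm1* KO. All 5 genes were highest among the WT libraries in replicate 4 and highest among the *Mtm1* KO + TAM libraries in replicate 14, as *Aldh3a1* was, which the choice by profile favours. In the libraries that the choice did not use, *Krt8* was at 0.103 CPM in WT replicate 1 and 26.0 in KO replicate 12, and *Uchl1* was at 13.9 and 113 CPM. For *Krt8*, 29.7% of the stretches of 50 bases recur in other genes, mainly the pseudogene *Krt8-ps*.

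Nearest to *Srxn1* were *Mt2*, a metal-binding metallothionein, at 0.29, *Anxa7*, an annexin, at 0.29, *Rgcc* at 0.33, *Tiam2*, an exchange factor of the GTPase Rac, at 0.35, and *Gprc5b* at 0.36. *Mt2* averaged 8.96 CPM in WT, 33.6 in WT + TAM, 247 in *Mtm1* KO and 254 in *Mtm1* KO + TAM, and 45.8% of its stretches are shared with another gene. *Aldh3a1* and *Srxn1* were at 0.64 from each other, and the closest of the 9 genes compared, without *Slc7a11*, were *Gclc* and *Txnrd1*, at 0.52. These distances are descriptions over the same libraries.

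**Figure D3:**
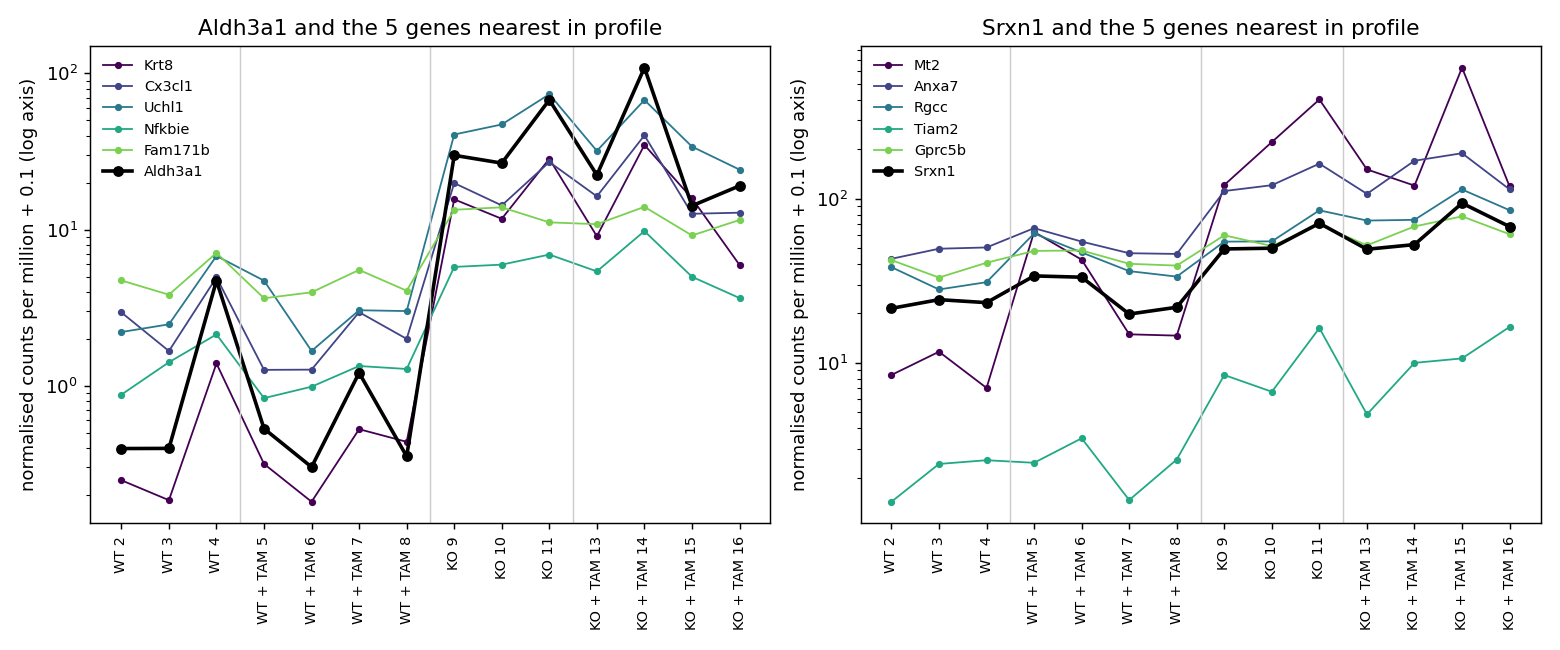
Normalised CPM with 0.1 added (log axis) in each of the 14 libraries for *Aldh3a1* (left) and *Srxn1* (right), in black, and for the 5 genes nearest in profile, with vertical lines between groups. *Aldh3a1* and its 5 nearest genes step up between WT + TAM replicate 8 and *Mtm1* KO replicate 9, and all share the high values of WT replicate 4 and *Mtm1* KO + TAM replicate 14.

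A list of 45 further target genes of NRF2, from glutathione transferases to enzymes that make NADPH, lay mostly above 0 in *Mtm1* KO against WT. Like the lists below, it was chosen with earlier results of these data known. Of 41 tested, 3 were called higher (1.91% of all genes) and 0 lower (1.69%), 36 lay above 0 (52.4% of all genes), and the median log2 fold change was 0.53 beside 0.02 for all genes. The called genes were *Gstp2*, a glutathione transferase, at 1.24 ± 0.20 (adjusted p = 0.00567, edgeR's quasi-likelihood test), *Pgd*, an enzyme of the pentose phosphate pathway, at 1.41 ± 0.25 (0.00949), and *Akr1b8*, an aldo-keto reductase, at 1.54 ± 0.27 (0.009). *Gstp2* shares 54.3% of its stretches with other genes, mainly *Gstp1*, so its count is uncertain. *Txn1*, thioredoxin, stood at 1.18 ± 0.22 (0.0107), *Esd*, an esterase, at 1.21 ± 0.23 (0.0129) and *Ephx1*, an epoxide hydrolase, at 1.08 ± 0.21 (0.0124), each just above the threshold of the adjusted p in edgeR's test. At an unadjusted p under 0.05 there were 22 of the 41 (30.1% of all genes). DESeq2 called 10 higher and 1 lower, and edgeR's exact test 9 higher and 1 lower. With library size in place of TMM, the median of the list was 0.84 and that of all genes 0.33.

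Between the treated genotypes the median of the list was near that of all genes. The treated knockout mice lay above untreated WT, with a list median of 0.44 and 35 of 40 genes above 0. Tamoxifen within WT gave a list median of 0.18, with 32 of 40 genes above 0. Its list median within the knockout mice was -0.06, with 15 of 41 genes above 0. The medians of all genes were -0.001, -0.004 and -0.009 in the same order. In *Mtm1* KO + TAM against WT + TAM, 3 of 40 were called higher (3.42% of all genes) and 1 lower (3.3%), 23 lay above 0 (48.7% of all genes), and the median was 0.07 beside -0.01. The 3 higher were *Gstp2* at 0.62 ± 0.12 (adjusted p = 0.00541, edgeR's quasi-likelihood test), *Txn1* at 0.83 ± 0.16 (0.00598) and *Esd* at 0.98 ± 0.15 (0.00159). With WT + TAM replicates 7 and 8 summed, *Esd* alone was called higher, and the median was 0.00. *Abcc4*, a transporter of conjugates, was lower at -1.19 ± 0.18 (0.00149, edgeR's test). *Pgd* stood at 0.08 ± 0.26 (adjusted p = 0.867). Its level was 39.5, 19.98 and 23.6 CPM in WT, 86.9, 65.1, 38.8 and 38.4 CPM in WT + TAM, 87.2, 69.2 and 60.9 CPM in *Mtm1* KO and 48.4, 47.9, 66.9 and 78.4 CPM in *Mtm1* KO + TAM. *Gsta3*, a glutathione transferase, was likewise at 5.04 and 8.69 CPM in WT + TAM replicates 5 and 6 and at 1.70 and 1.77 CPM in replicates 7 and 8. The fat cell markers (5 of 5 in the table, none at 0) were likewise higher in replicates 5 and 6, and over the groups they summed to 78.6 to 1003 CPM in WT, 344 to 1584 in WT + TAM, 485 to 841 in *Mtm1* KO and 483 to 654 in *Mtm1* KO + TAM. The median log2 fold change of the 5 markers was 0.58 in *Mtm1* KO against WT and -0.68 in *Mtm1* KO + TAM against WT + TAM. In both comparisons 0 of the 5 were called with edgeR's quasi-likelihood test. The part of fat cells in these levels and in the medians of the list was not tested.

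The interaction of genotype and tamoxifen was called for 0 of 41 genes of this list with edgeR's quasi-likelihood test and with DESeq2, 7 had an unadjusted p under 0.05 (4.27% of all genes), and the median was -0.31 beside 0.01 over all genes, with 33 below 0. Averaged over treatments, 9 of 41 were called higher between genotypes (8.99% of all genes) and 1 lower (10.4%), or 8 and 2 with WT + TAM replicates 7 and 8 summed. Among the 9 was *Gsta1*, which passed the filter on low counts only in comparisons that included untreated *Mtm1* KO, its highest group. *Mtm1* KO + TAM against WT had 4 of 40 called higher (3.56%) and 1 lower (4.14%). These were *Txn1* at 1.00 ± 0.16, *Esd* at 0.92 ± 0.16, *Ephx1* at 1.01 ± 0.18, *Gsta3* at 2.33 ± 0.46 and, lower, *Abcc4* at -1.04 ± 0.19, with adjusted p of 0.00204 to 0.00626 in edgeR's test. Tamoxifen gave 0 calls in the list within either genotype in edgeR's quasi-likelihood test, with 10 of 40 at an unadjusted p under 0.05 in WT (10.7% of all genes) and 3 of 41 in *Mtm1* KO (7.55%). DESeq2 called *Gsta3* and *Gstm2* higher in WT and 0 genes in *Mtm1* KO, and edgeR's exact test *Gsta3* and 0.

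**Figure D4:**
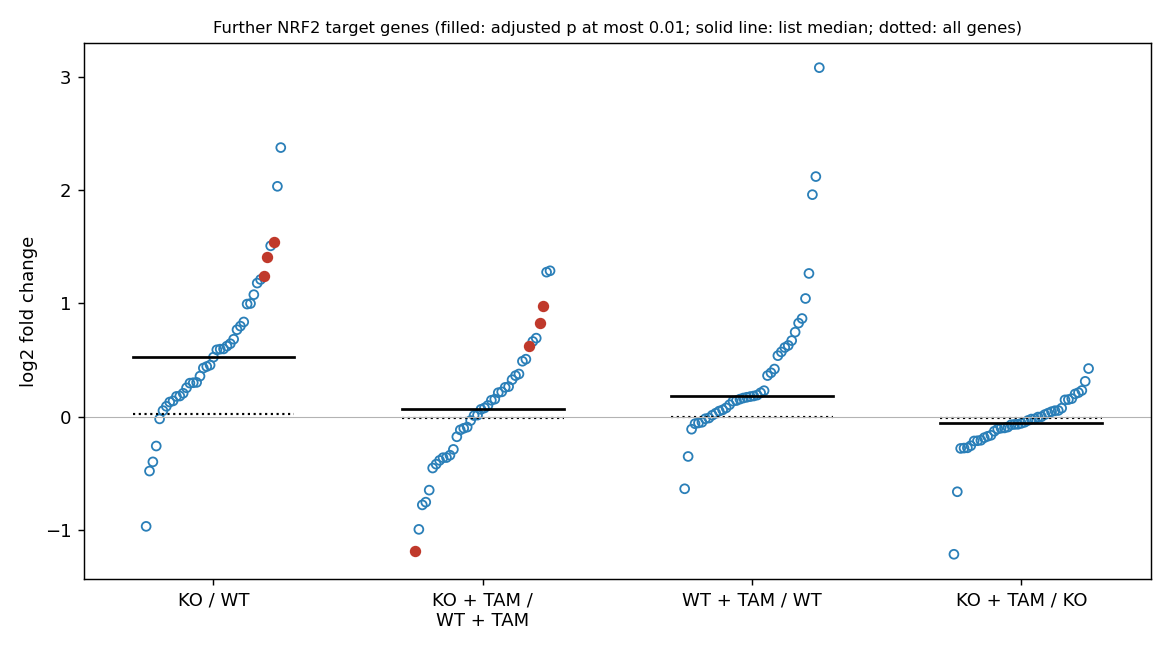
Log2 fold change of the 40 or 41 tested genes of the further NRF2 target list in 4 comparisons, 1 point a gene in rising order, filled where the adjusted p was at most 0.01 (edgeR), with a solid line at the list median and a dotted line at the median of all genes. The solid line stands at 0.53 in *Mtm1* KO against WT and at 0.07 in *Mtm1* KO + TAM against WT + TAM, and the dotted lines lie between -0.01 and 0.02.

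Of 20 partners and regulators of NRF2, 18 were tested in *Mtm1* KO against WT and 0 were called with edgeR's quasi-likelihood test, with 9 above 0 and a median of 0.01 beside 0.02 over all genes. In this comparison 3.6% of all genes were called. At an unadjusted p under 0.05 there were 5 of the 18 (30.1% of all genes), and DESeq2 called 1 higher and 1 lower and edgeR's exact test 1 higher. *Maff*, a small MAF partner, stood at 1.27 ± 0.24 (adjusted p = 0.011), *Cul3*, the ligase scaffold that KEAP1 binds, at -0.71 ± 0.19 (0.0435), and *Bach2*, a repressor of the same elements, at 0.95 ± 0.27 (0.051), all from edgeR's quasi-likelihood test. Averaged over treatments, 3 of 19 were called higher (8.99% of all genes) and 2 lower (10.4%), among them *Maff* at 1.05 ± 0.20 (adjusted p = 8.91e-04), *Cul3* at -0.64 ± 0.13 (0.00161) and *Sesn1*, a sestrin, at -0.42 ± 0.10 (0.00472) in edgeR's test. *Maff* averaged 3.36 CPM in WT, 6.01 in WT + TAM, 7.96 in *Mtm1* KO and 10.8 in *Mtm1* KO + TAM, and it was called in *Mtm1* KO + TAM against WT at 1.69 ± 0.19 (adjusted p = 5.29e-04, edgeR's test). *Sesn1* was called lower in *Mtm1* KO + TAM against WT + TAM at -0.71 ± 0.11 (adjusted p = 0.00153, edgeR's test), beside a mean of 50.6 CPM in WT + TAM, 30.9 in *Mtm1* KO + TAM, 31.1 in WT and 28.3 in *Mtm1* KO.

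In the family of aldehyde dehydrogenases *Aldh3a1* had the largest rise. Of 19 of 21 genes tested in *Mtm1* KO against WT, 0 were called higher (1.91% of all genes) and 1 lower (1.69%) with edgeR's quasi-likelihood test, with 8 at an unadjusted p under 0.05 (30.1% of all genes). DESeq2 called 1 higher and 3 lower, and edgeR's exact test 1 higher and 1 lower. The gene called lower was the mitochondrial folate enzyme *Aldh1l2* at -1.59 ± 0.26 (adjusted p = 0.00624, edgeR's quasi-likelihood test). In the treated pair, where 3.42% of all genes were called higher and 3.3% lower, *Aldh3a1* was called higher, and *Aldh1l2* (-1.37 ± 0.26, adjusted p = 0.00466) and the retinaldehyde dehydrogenase *Aldh1a1* (-1.25 ± 0.16, adjusted p = 7.46e-04) lower in edgeR's test. The call of *Aldh1l2* in this pair was lost with WT + TAM replicates 7 and 8 summed. Averaged over treatments, 1 of 19 was higher (8.99% of all genes), *Aldh3a1*, where DESeq2 called 3, and 4 were lower (10.4%), among them *Aldh6a1* of valine breakdown at -0.76 ± 0.16 (adjusted p = 0.00196, edgeR's test). *Aldh1l2* and *Aldh6a1* share 13.6% and 16.1% of their stretches with other genes.

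Of 12 genes of the aryl hydrocarbon receptor battery, a list that holds *Aldh3a1*, *Nqo1* and *Nfe2l2* as well, 9 were tested in *Mtm1* KO against WT and 0 were called with edgeR's quasi-likelihood test, where 3.6% of all genes were called. At an unadjusted p under 0.05 there were 4 (30.1% of all genes), and DESeq2 and edgeR's exact test each called 1. *Cyp1b1*, a cytochrome that the receptor induces, averaged 2.36 CPM in WT, 2.02 in WT + TAM, 5.33 in *Mtm1* KO and 4.46 in *Mtm1* KO + TAM, with a log2 fold change of 1.19 ± 0.44 (adjusted p = 0.108) without and 1.15 ± 0.42 (0.0819) with tamoxifen in edgeR's test. Between the treated genotypes the 1 gene of 8 called was *Aldh3a1*, against 6.72% of all genes. Averaged over treatments 2 of 9 were called higher (8.99% of all genes), *Aldh3a1* and *Gsta1*. The latter averaged 0.132 CPM in WT and 0.689 in *Mtm1* KO and shares 90.5% of its stretches with other genes. *Gsta1* passed the filter on low counts only in comparisons that included untreated *Mtm1* KO, its highest group. Its call is thus not independent of that filter. Averaged over genotypes, *Tiparp*, a target of the receptor, was called higher with tamoxifen, as 1 of 9 (0.591% of all genes), at 0.78 ± 0.13 (adjusted p = 0.00519, edgeR's test).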

How the data were processed

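Libraries of 16 quadriceps were made with Illumina TruSeq chemistry from 1 ug of RNA each. Per the submitters' processing notes and the study's methods, reads were demultiplexed with bcl2fastq 2.17 and aligned to GRCm38 with STAR 2.5.0c, and HTSeq counted reads per gene. Cufflinks 2.2.1 is also named in the notes. The strand setting is not given in the sources used here. The authors deposited raw counts per gene and, in a separate table, RPKM values, which are counts scaled by gene length and library total. Columns were matched to samples by their names, and 0 columns belonged to other samples.

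From the deposited counts, TMM-scaled CPM and pairwise quasi-likelihood tests were computed with edgeR 4.0.16 in R 4.3.3, on 2 groups at a time. Genes were kept by filterByExpr (minimum count 10, minimum total 15), and p-values were adjusted by Benjamini-Hochberg over all genes kept. Differences averaged over treatment or genotype and their interaction came from 1 fit of 4 groups. The 14 libraries that the study's own tables of comparisons name were used, without WT replicate 1 and KO replicate 12. The labels give day 36 for collection, where the study's supplementary text has day 35. Alternatives were DESeq2 1.42.0, RLE or library size scaling, no filter, edgeR's exact test, limma 3.58.1 on log2 of RPKM plus 0.1 or 1, an adjusted p of at most 0.05, all 16 libraries, and each library left out. WT + TAM replicates 7 and 8 summed was chosen after seeing the data, as were the other tools and scalings for the gene lists. Each numbered sample was taken as 1 mouse, and p-values measure the spread between these samples.

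The 10 genes and all lists were chosen with earlier results of these data known. Genes named were the 10 members, the genes of each list called in any pairwise comparison (the 3 with the lowest p in *Mtm1* KO against WT where fewer were called), the 5 genes nearest in profile to *Aldh3a1* and to *Srxn1*, among genes with a mean of at least 1 CPM, and marker genes whose level moved with a member. *Tiparp*, *Gstm2*, *Myh1*, *Mrc1*, *Krt10* and the genes that share sequence were named after their values were seen. Positions and shared 50-base stretches are from GENCODE vM21 (GRCm38), and promoter sequences and motif searches from RefSeq (GRCm38.p6). The scripts were tested on simulated data. Figures were drawn with matplotlib 3.10.9 in Python 3.11.15.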

Additional observations from a re-analysis of the deposited data

Results flagged for a closer look

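Of 18 groups of 4 libraries tested for a library that stands apart by Dixon's ratio, 2 were picked out, where chance picks out about 1 in 20. *Aldh3a1* in *Mtm1* KO + TAM was at 109 CPM in replicate 14 and at 14.1 to 22.2 CPM in the other 3 libraries, so that the gap of the highest library to the next was 0.914 of the range of the group. That library held 5.90 times the mean of the other *Mtm1* KO + TAM libraries. *Txnrd1* in WT + TAM was at 113 CPM in replicate 6 and at 78.5 to 83.0 CPM in the other 3, a gap of 0.869 of the range. In WT, a group of 3 libraries to which this comparison was not applied, *Aldh3a1* was also high in 1 library, replicate 4.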

How the results depend on the processing

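Of the 9 tested genes, 1 was called in *Mtm1* KO against WT, and DESeq2 called 4, library size scaling, no filter, limma on log2 of RPKM plus 0.1 or plus 1 and edgeR's exact test called 3 each, 1 fit of 4 groups called 2, and an adjusted p of at most 0.05 gave 4. Leaving out 1 library gave 1 to 1, but without WT replicate 4 the gene called was *Aldh3a1* in place of *Srxn1*. In *Mtm1* KO + TAM against WT + TAM, 2 were called, 1 to 2 with 1 library left out and 1 with WT + TAM replicates 7 and 8 summed, which was chosen after seeing the data. Other settings gave up to 3. In *Mtm1* KO + TAM against WT, 2 were called, 1 with all 16 libraries, 1 to 2 with 1 left out and up to 3 in other settings. Averaged over treatments, 3 were called, 5 with library size scaling, with limma at either pseudocount and at an adjusted p of 0.05, and 3 to 4 with 1 library left out. For tamoxifen averaged over genotypes 0 were called, and 1 with DESeq2 and at an adjusted p of 0.05. The cause of these moves was not tested, except that a looser threshold calls more genes by its construction. Some directions turned. In *Mtm1* KO against WT, library size scaling and limma at 0.1 and 1 gave *Gclc* 0.083, 0.069 and 0.055, *Gclm* 0.095, 0.11 and 0.087 and *Txnrd1* 0.041, 0.025 and 0.025. *Gclm* turned to 0.21, 0.22 and 0.18 in the treated pair (-0.17 to 0.13 with 1 library left out) and to 0.15, 0.17 and 0.13 averaged over treatments. With tamoxifen and 1 library left out, *Aldh3a1* ranged from -1.17 to 0.53 in *Mtm1* KO and from -2.30 to 0.74 in WT, and its interaction from -0.74 to 2.54, and the interaction was -0.033 with limma at a pseudocount of 1. Of the other fold changes of single genes under other settings, 311 kept their direction and their side of the threshold, 46 newly passed it and 5 no longer did. No paired analysis was possible. The study's supplementary text describes the samples as coming from littermates, but the labels name no litter. The replicate numbers, 1 to 16, are not shared between groups. Depth limits *Slc7a11*, with at most 8 reads in a library of the main set, and *Aldh3a1* in WT and WT + TAM, with as few as 5.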
